A study of Mus musculus with 8 samples.

Results

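The genes described here encode the machinery that presents cytosolic peptides on major histocompatibility complex (MHC) class I molecules. There were 9 of them, given by symbol: the heavy chains H2-K1, H2-D1 and H2-T23, the light chain B2m, the peptide transporter subunits Tap1 and Tap2, the loading factor Tapbp, the peptidase Erap1 and the regulator Nlrc5. All 9 were found among the 39056 genes of the count table, and all 9 were among the 12619 genes with enough counts to test. RNA came from CD4+ T cells of C57BL/6J mice, sorted from spleen and lymph node cells that had been pooled. Per the labels the cells carried CD4-Cre, a transgenic T cell receptor (TCR) beta chain and a deletion of Tcra, in both groups alike. The mice had been given bone marrow progenitors carrying a retroviral TCR alpha chain, either the one called ANT (4 libraries, numbered 1, 3, 4 and 5) or the one called SAS (4 libraries, numbered 1, 2, 3 and 6). Each group is therefore a single receptor, and a difference between the groups compares 2 clones. The labels give neither the age of the mice nor whether each library came from its own animals, so every p-value rests on the spread among these libraries, which may in part be technical.

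Class I molecules consist of a heavy chain paired with beta-2 microglobulin, and nearly all nucleated cells, T cells included, carry them. Peptides cut by the proteasome are pumped into the endoplasmic reticulum by the Tap1 and Tap2 transporter, trimmed by Erap1 and loaded with the help of tapasin, the product of Tapbp. Interferons raise the transcription of these genes, in part through Irf1 and through Nlrc5, which acts on a promoter module shared by the class I genes.

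Promoters are shown first for H2-K1, H2-D1 and B2m, whose windows hold letters of the X2 and Y boxes at 1 fixed spacing, and for Tap1 and H2-T23, which passed the test between the clones. The sequences are from RefSeq on GRCm38.p6, the build of the mm10 alignment, and cover the 250 bases before the annotated start, written 5′ to 3′ on the strand of the gene. Capitals mark matches to the kappa B palindrome of class I genes (the first capitals in the H2-K1 window), AANNGAAA (the core bound by interferon regulatory factors), its tandem form (GAAA, any 2 bases and GAAA, which overlaps the core), TGACG (the core of the X2 box) and CCAAT (the Y box), each on either strand.
H2-K1, chr17:34000348-34000597, minus strand: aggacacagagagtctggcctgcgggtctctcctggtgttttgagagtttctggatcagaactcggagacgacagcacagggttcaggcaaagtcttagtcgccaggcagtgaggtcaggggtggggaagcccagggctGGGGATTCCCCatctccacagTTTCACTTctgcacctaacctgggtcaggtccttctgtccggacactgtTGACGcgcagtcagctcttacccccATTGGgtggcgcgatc
H2-D1, chr17:35262844-35263093, plus strand: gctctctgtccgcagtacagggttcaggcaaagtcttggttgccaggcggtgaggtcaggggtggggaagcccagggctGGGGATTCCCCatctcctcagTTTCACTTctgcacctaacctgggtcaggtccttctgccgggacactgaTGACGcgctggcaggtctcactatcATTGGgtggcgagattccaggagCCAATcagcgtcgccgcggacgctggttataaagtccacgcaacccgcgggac
B2m, chr2:122147437-122147686, plus strand: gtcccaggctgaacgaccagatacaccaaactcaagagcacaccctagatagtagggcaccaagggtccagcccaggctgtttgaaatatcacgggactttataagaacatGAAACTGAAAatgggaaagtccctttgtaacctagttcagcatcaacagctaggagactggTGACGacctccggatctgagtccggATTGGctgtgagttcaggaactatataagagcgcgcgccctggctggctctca
Tap1, chr17:34187306-34187555, plus strand: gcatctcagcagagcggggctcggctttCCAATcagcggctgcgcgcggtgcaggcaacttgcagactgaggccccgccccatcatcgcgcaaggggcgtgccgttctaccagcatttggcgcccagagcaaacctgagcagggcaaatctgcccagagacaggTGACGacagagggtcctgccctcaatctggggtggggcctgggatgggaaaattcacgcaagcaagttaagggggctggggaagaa
H2-T23, chr17:36032702-36032951, minus strand: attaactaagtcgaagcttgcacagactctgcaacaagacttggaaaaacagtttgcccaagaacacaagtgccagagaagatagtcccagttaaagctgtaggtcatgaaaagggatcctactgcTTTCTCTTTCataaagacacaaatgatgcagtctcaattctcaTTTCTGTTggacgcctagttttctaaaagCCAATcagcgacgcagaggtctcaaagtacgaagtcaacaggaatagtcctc
Windows were given for 7 of the 9 members; Nlrc5 and Tap2 had none. The H2-K1 and H2-D1 windows were 87.4% identical over 190 aligned bases. In both, the interferon core began 21 bases after the kappa B site, the X2 core 49 bases after the interferon core and the CCAAT match 25 bases after the X2 core. B2m had the X2 core and the CCAAT match at the same 25 base spacing, with the interferon core 59 bases before the X2 core. Of 32851 windows of 300 bases (250 before and 50 after the start), 0.0944% held TGACG and ATTGG at this spacing on either strand. These windows belonged to 27 genes, of which 4 were in the class I lists: H2-K1, H2-D1, B2m and H2-M3, a class I gene that presents formylated peptides. The spacing was read from the H2-K1 window, so H2-K1 is among the 27 by construction. Windows were available for 21 genes of the class I lists and for 27025 genes in all. The kappa B palindrome was in 0.0304% of all windows, the interferon core in 23.9%, its tandem form in 3.44%, TGACG in 20.8% and CCAAT in 37.4%. In H2-T23 the tandem form lay 124 to 115 bases before the start, and in Erap1 a tandem match spanned the start itself, from 4 bases before to 6 after it. Tapbp had 2 CCAAT matches and no match to the other letters. A match describes these letters and is not a measured binding site.

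Class I transcripts made up a smaller share of the RNA in SAS than in ANT. In edgeR's quasi-likelihood test over all genes, 5 of the 9 members were called higher in ANT at a Benjamini-Hochberg adjusted p under 0.05 and 0 were called higher in SAS. limma gave 5 and 0, and DESeq2 gave 7 and 0. Over all genes tested 17.7% were called higher in ANT and 19.8% higher in SAS. The 5 were H2-K1, H2-T23, B2m, Tap1 and Tap2, and all had the 4 ANT libraries above the 4 SAS libraries, as did 17.7% of all genes (38.1% were free of overlap in either direction). Of these, B2m and Tap1 were also at least 1.5-fold higher, as were 11.3% of all genes in ANT and 15.3% in SAS. The other 4 members (H2-D1, Tapbp, Erap1 and Nlrc5) overlapped between the clones. The median log2 difference of the 9 members (the log2 fold change, SAS minus ANT) was −0.47, beside −0.0032 over all genes. Without regard to sign, the median size of the log2 difference was 0.47 for the members and 0.35 over all genes. The differences were modest, and 0 of the members passed a test against a 1.5-fold change. No member had a positive log2 difference, so at an unadjusted p under 0.05 the count higher in SAS was 0 as well. In bulk RNA, fewer cells that express a gene and less of its RNA per cell cannot be told apart.

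**Figure D1:**
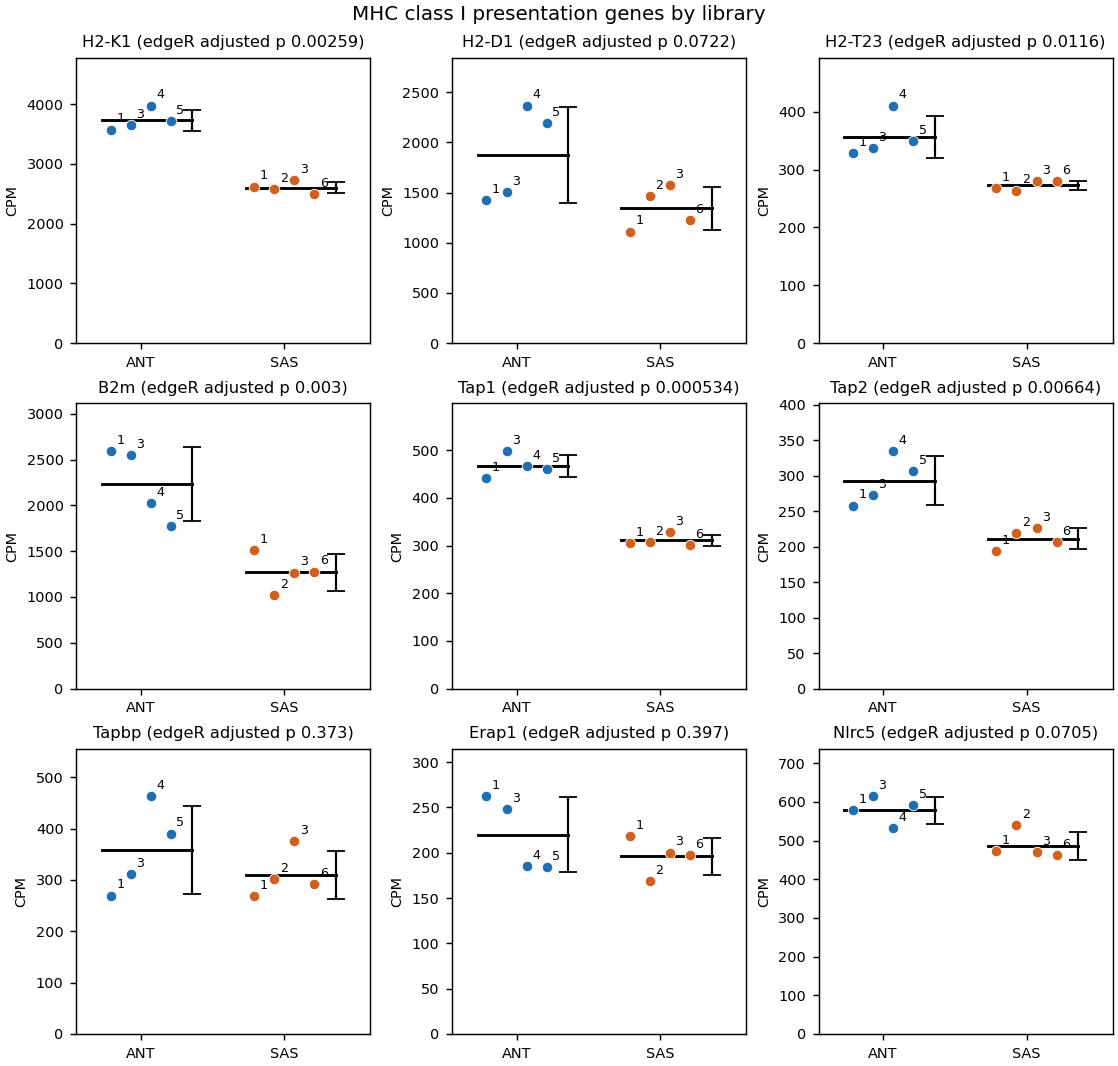
Each panel plots 1 member, with CPM (counts scaled to library size) on a linear axis from 0, a point per library labelled with its replicate number, and the mean and SD of the 4 libraries of each clone. ANT lies wholly above SAS for H2-K1, H2-T23, B2m, Tap1 and Tap2, and the clones overlap for H2-D1, Tapbp, Erap1 and Nlrc5.

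The libraries held 27600959 to 31810799 counts, and the 9 members together took 0.933% to 1.03% of the counts in ANT libraries and 0.709% to 0.753% in SAS libraries. Levels are given below in CPM, which scales each count to the total of its library with TMM factors. A second axis of variation crosses the clones: the second principal component placed ANT replicates 1 and 3 and SAS replicate 1 at one end (24.97, 26.64 and 23.55) and ANT replicates 4 and 5 and SAS replicate 2 at the other (−25.1, −31.33 and −24.98). Mitochondrial transcripts moved with it, at 2.54% and 2.44% of counts in ANT replicates 1 and 3 and 1.62% and 1.54% in replicates 4 and 5, and so did ribosomal protein transcripts, at 9.18% and 8.95% against 7.27% and 6.10%. In SAS ribosomal protein transcripts took 4.92% to 6.84%, overlapping ANT, while pseudogene transcripts took 0.469% to 0.538% in ANT and 0.346% to 0.359% in SAS, without overlap. The part of these shares in the class I differences was not tested. Members that move along this axis are given with and without these pairs of libraries. The pairs were chosen from these same data, and each such fit keeps ANT libraries that lie close together. Its p-values thus rest in part on the spread inside a pair. Without ANT replicates 4 and 5, 2824 genes were called higher in ANT and 3089 in SAS, beside 2228 and 2497 with all libraries. The sums of marker lists, unlike the other levels, were scaled to library totals alone, without TMM factors. Markers of T cells (11 genes) summed to 8148 to 10810 CPM in ANT and 8054 to 11052 in SAS. The B cell list (11 genes) summed to 650.0 to 669.5 in ANT and 139.8 to 231.5 in SAS. Most of it was Ighm, whose means with TMM factors were 665 and 150 CPM. The defining genes Ms4a1 and Pax5 had 17 and 25 counts in all of ANT and 11 each in all of SAS. The CD8 T cell list (Cd8a and Cd8b1) summed to 13.7 to 65.3 in ANT and 2.10 to 4.54 in SAS, with Cd8b1 the larger part. Myeloid and dendritic cell markers summed to 27.002 to 39.4 and 26.7 to 39.7. The NK list summed to 33.0 to 41.2 in ANT and 145.7 to 181.7 in SAS, mostly Prf1 in ANT and Eomes in SAS, with Ncr1, Klre1 and Klra8 at 0 in all libraries. The part of Ighm, Cd8b1, Prf1 and Eomes in the class I differences was not tested.

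H2-K1 (ENSMUSG00000061232.15, chromosome 17, 33996017 to 34000347, minus strand, mm10) encodes the classical heavy chain K, which displays peptides to CD8+ T cells. ANT replicates 1, 3, 4 and 5 held 3572, 3652, 3974 and 3715 CPM of it, while SAS replicates 1, 2, 3 and 6 held 2620, 2577, 2723 and 2493 CPM. All members below are given in this order of libraries. The lowest ANT library was thus far above the highest SAS library, with little spread inside either clone. The means were 3728 ± 174 and 2603 ± 95.6 CPM (SD, n = 4), a 1.43-fold excess in ANT with a log2 difference of −0.52 (SE 0.10, adjusted p 0.00259 in edgeR).

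H2-D1 (ENSMUSG00000073411.11, chromosome 17, 35262730 to 35267499, plus strand) encodes the other classical heavy chain, D. It was at 1424, 1506, 2367 and 2191 CPM in the ANT libraries and at 1112, 1462, 1571 and 1226 CPM in the SAS libraries. ANT split into a low pair (1 and 3) inside the SAS range and a high pair (4 and 5), 1.56-fold apart. The log2 difference of −0.48 (SE 0.19) was close to that of H2-K1 but did not pass the test (adjusted p 0.0722 in edgeR). Without ANT replicates 1 and 3 it was −0.77 (adjusted p 0.0033), without replicates 4 and 5 it was −0.15 (0.433), and DESeq2 called it (0.0358).

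H2-T23 (ENSMUSG00000067212.8, chromosome 17, 36029773 to 36032855, minus strand) encodes Qa-1, a non-classical heavy chain that shows leader peptides of other class I chains to CD94/NKG2 receptors. It was at 328, 337, 411 and 349 CPM in ANT and at 267, 264, 280 and 280 CPM in SAS. The clones did not overlap, and ANT replicate 4 was the highest library. The log2 difference was −0.39 (SE 0.10, adjusted p 0.0116 in edgeR), a 1.31-fold excess in ANT.

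Heavy chain genes resemble each other, and how reads that map to several places were counted is not given in the sources used here. Of the 50-base stretches of the annotated coding transcripts, 6.87% in H2-K1, 13.9% in H2-D1 and 29.8% in H2-T23 also occurred in transcripts of another gene. For stretches of 100 bases these shares were 0%, 4.09% and 7.28%. H2-K1 and H2-D1 shared 5.43% of the 50-base stretches of H2-K1 with each other and none of 100 bases. Counts of 16 class I heavy chain genes were therefore also summed to 1 value, which reads moving between these genes cannot change. The 16 were the 3 members and the listed H2-Q, H2-T and H2-M genes. Reads exchanged with genes outside the 16 can still change the sum. H2-Q7 shared 17.4% of its 50-base stretches with H2-Q5, and H2-T23 shared 12.9% with H2-T-ps. The sum averaged 8460 ± 971 CPM over ANT and 6184 ± 442 over SAS (log2 difference −0.45, SE 0.13, adjusted p 0.0175 in edgeR), with ANT libraries from 7533 to 9568 and SAS libraries from 5738 to 6585 CPM. The call was lost without SAS replicate 6 (−0.42, adjusted p 0.0616). H2-K1 made up 44.4% ± 3.32 of the sum in ANT and 42.2% ± 2.39 in SAS, and H2-D1 21.9% ± 3.15 and 21.6% ± 2.12.

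B2m (ENSMUSG00000060802.8, chromosome 2, 122147686 to 122153083, plus strand), the light chain of every class I molecule, had the largest difference among the members. It was at 2594, 2545, 2021 and 1773 CPM in ANT and at 1515, 1020, 1266 and 1277 CPM in SAS. The clones did not overlap, although ANT replicate 5 and SAS replicate 1 came within 300 CPM of each other. The log2 difference was −0.81 (SE 0.16, adjusted p 0.003 in edgeR), a 1.76-fold excess in ANT. B2m also fell along the axis that splits the libraries, with replicates 1 and 3 of ANT 1.36-fold above replicates 4 and 5, opposite to H2-D1. The log2 difference was −1.04 without ANT replicates 4 and 5 and −0.58 without replicates 1 and 3, and both passed the test (adjusted p 0.000544 and 0.0174).

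Tap1 (ENSMUSG00000037321.17, chromosome 17, 34187553 to 34197225) and Tap2 (ENSMUSG00000024339.12, chromosome 17, 34203527 to 34216321), both on the plus strand, lie close to each other in the MHC and encode the subunits of the peptide transporter. Tap1 was at 442, 498, 467 and 460 CPM in ANT and at 305, 308, 329 and 301 CPM in SAS. Both clones were tight and did not overlap. The log2 difference was −0.59 (SE 0.09, adjusted p 0.000534 in edgeR), 1.502-fold higher in ANT. Tap2 was at 258, 273, 335 and 307 CPM in ANT and at 194, 219, 226 and 207 CPM in SAS, again without overlap (log2 difference −0.47, SE 0.11, adjusted p 0.00664). The Tap1 exons overlap those of Psmb9 on the other strand by 212 bases (3.87% of the Tap1 exons). Exons of Tap2 overlap those of the noncoding gene Gm15821 on the other strand over 14.1% of their length. Gm15821 itself had a mean of 4.375 counts per library.

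Tapbp (ENSMUSG00000024308.14, chromosome 17, 33915899 to 33929292, plus strand), which encodes tapasin, was at 269, 312, 463 and 390 CPM in ANT and at 269, 302, 375 and 292 CPM in SAS. It followed the same split as H2-D1 in ANT, and the clones overlapped (log2 difference −0.21, SE 0.17, adjusted p 0.373 in edgeR). It was at 0.07 without ANT replicates 4 and 5 (adjusted p 0.708) and at −0.46 without replicates 1 and 3 (0.0289). Exons of Tapbp overlap those of Gm19412 on the other strand over 24.9% of their length. They overlap those of Zbtb22 on the same strand over 4.11%. Of the 50-base stretches of Tapbp, 22.4% also occurred in another gene. Erap1 (ENSMUSG00000021583.6, chromosome 13, 74639568 to 74693201, plus strand), the aminopeptidase that trims peptides in the endoplasmic reticulum, was at 262, 248, 185 and 184 CPM in ANT and at 218, 168, 200 and 197 CPM in SAS. Its split in ANT ran the other way, as that of B2m did. The log2 difference of −0.17 (SE 0.14, adjusted p 0.397) became −0.40 without ANT replicates 4 and 5 (0.0183) and 0.08 without replicates 1 and 3 (0.605). Exons of Erap1 overlap those of Cast on the other strand over 11.5% of their length, and the strand setting of the counting is not given in the sources used here.

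Nlrc5 (ENSMUSG00000074151.13, chromosome 8, 94434356 to 94527272, plus strand), the transactivator of class I genes, was at 578, 614, 532 and 591 CPM in ANT and at 473, 541, 470.5 and 462 CPM in SAS. SAS replicate 2 alone reached into the ANT range, above ANT replicate 4. The log2 difference was −0.25 (SE 0.10), which did not pass the test (adjusted p 0.0705 in edgeR). Of 19 alternatives other than the test against a 1.5-fold change, 4 called it. Among these were the fits without SAS replicate 2 (−0.31, 0.0464) and without ANT replicates 4 and 5 (−0.32, 0.0314), and DESeq2 (0.0179). With library totals as the only scaling it was −0.15 (0.263).

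**Figure D2:**
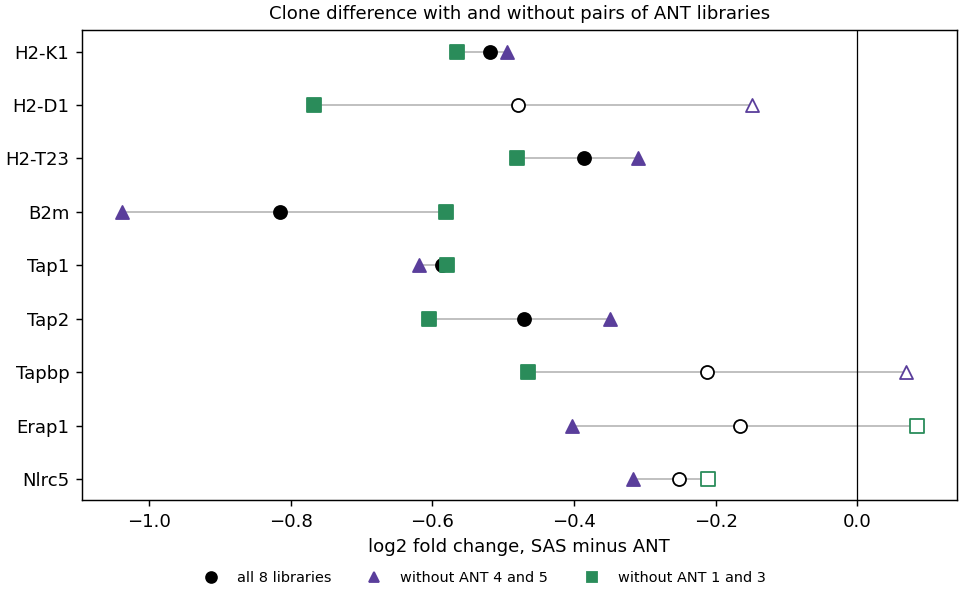
Log2 differences of the 9 members with all 8 libraries (circles), without ANT replicates 4 and 5 (triangles) and without ANT replicates 1 and 3 (squares), filled where the edgeR adjusted p was under 0.05. H2-K1, H2-T23, B2m, Tap1 and Tap2 stay below 0 and filled in all 3 fits, while Tapbp and Erap1 cross 0 in opposite directions.

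The members that shifted in opposite directions between the ANT pairs also differed in base composition. The longest coding transcripts of B2m and Erap1 held 41.2% and 41.5% G and C, and their levels in ANT replicates 4 and 5 relative to replicates 1 and 3 differed by −0.44 and −0.47 on the log2 scale. H2-D1 and Tapbp held 55.9% and 57.1% and differed by 0.64 and 0.55. H2-K1 and Tap1 held 56.3% and 57.3% and differed by 0.09 and −0.02. Tap2, H2-T23 and Nlrc5 held 56.9%, 53.9% and 52.6% and differed by 0.27, 0.19 and −0.09. The part of base composition in these shifts was not tested.

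Ratios of member counts inside a library do not depend on how libraries are scaled to each other. H2-K1 counts were 2.51, 2.42, 1.68 and 1.70 times those of H2-D1 in the ANT libraries and 2.36, 1.76, 1.73 and 2.03 times in the SAS libraries. Each clone thus held libraries near both ends, and the mean log2 ratios of 1.03 ± 0.317 and 0.97 ± 0.207 gave an exact two-sided permutation p of 0.8. H2-K1 and H2-D1 together had 1.93, 2.03, 3.14 and 3.33 times the counts of B2m in ANT and 2.46, 3.96, 3.39 and 2.91 times in SAS. That log2 ratio was higher in SAS by 0.31, inside the spread (exact permutation p 0.257). The log2 ratio of H2-T23 to H2-K1 and H2-D1 differed by 0.12 (exact permutation p 0.2) and that of Tap1 to Tap2 by −0.12 (exact permutation p 0.286). Adjusted over the 4 ratios, the p-values were 0.381 to 0.8, where 4 libraries against 4 can give no raw p under 0.0286. For these 4 ratios, which leave out Tapbp, Erap1 and Nlrc5, a difference between the clones was not detected beyond the spread between libraries. The ratios of H2-K1 to H2-D1, of both to B2m and of Tap1 to Tap2 moved with the ANT pairs: without ANT replicates 4 and 5 they differed between the clones by −0.33, 0.67 and −0.27, and without replicates 1 and 3 by 0.21, −0.045 and 0.025. With 2 ANT libraries no exact permutation p can go under 0.133.

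**Figure D3:**
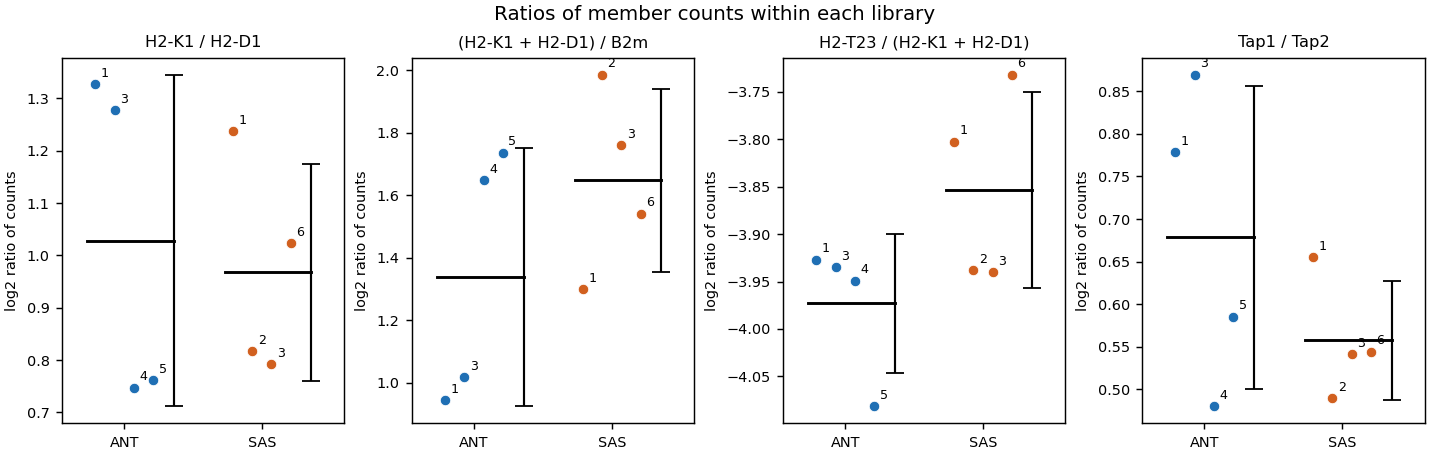
Log2 ratios of counts within each library for 4 pairs of members, with a point per library labelled by replicate and the mean and SD of each clone; the axes do not start at 0. ANT replicates 1 and 3 and SAS replicate 1 lie together for H2-K1 to H2-D1, and the clones overlap in every panel.

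Levels of different members were compared per kilobase of annotated exon, a scale that depends on which exons are annotated. In ANT the order was B2m (2597 ± 467 CPM per kb), H2-K1 (1269 ± 59.2), H2-D1 (726 ± 185), H2-T23 (123 ± 12.9), Tapbp (98.8 ± 23.6), Tap1 (85.2 ± 4.30), Tap2 (77.5 ± 9.15), Nlrc5 (68.2 ± 4.11) and Erap1 (30.2 ± 5.66). In SAS B2m, H2-K1 and H2-D1 again led, at 1476 ± 235, 886 ± 32.5 and 521 ± 81.8 CPM per kb. Tap1, Tap2 and Nlrc5 were at 56.8 ± 2.23, 55.9 ± 3.74 and 57.3 ± 4.28 in SAS and did not differ beyond their spread there. H2-T23 and Tapbp were at 94.4 ± 2.91 and 85.3 ± 12.6 in SAS. Inside single libraries H2-T23 was above Tapbp in every ANT library. In SAS it was above Tapbp except in replicate 3 (96.8 against 103 CPM per kb). Levels of different members were not tested against each other. B2m ranked 10th and H2-K1 30th by this measure among the genes tested.

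Among all genes tested, those whose centred log2 CPM followed a member most closely over the 8 libraries were found by root mean square difference. For B2m they were the ribosomal protein genes Rpl17, Rpl5 and Rps14, with differences of 0.042, 0.051 and 0.055. Their log2 differences between the clones were −0.79, −0.75 and −0.77, and values near that of B2m follow from this choice. For H2-K1 they were Fam169b, Taf3 and Ripk1 (0.053 to 0.057), for Tap1 Dgkd, Rbl1 and Ttc38 (0.052 to 0.058) and for Nlrc5 they included Atrn and Tsc1 (0.054 and 0.055).

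The wider family of class I and class I-like chains was more often higher in ANT than in SAS. Of 19 listed genes 13 were tested, and 7 were called higher in ANT and 2 higher in SAS, with a median log2 difference of −0.50. Over all genes tested, 17.7% were called higher in ANT and 19.8% higher in SAS. The counts of this list were 5 and 3 with library totals as the only scaling. They were 6 and 3 without ANT replicates 4 and 5, and 8 and 3 in DESeq2. H2-T24, a heavy chain gene of the T region, was at 87.4, 107.3, 86.8 and 77.0 CPM in ANT and 43.1, 35.97, 39.2 and 41.6 CPM in SAS (log2 difference −1.16, SE 0.12, adjusted p 3.87e-05 in edgeR). H2-M3 was at 58.8 ± 12.8 against 30.9 ± 2.34 CPM (log2 difference −0.93) and H2-T22, whose product is recognised by some gamma delta T cells, at 296 ± 38.5 against 183 ± 13.4 CPM (−0.69). Fcgrt, the heavy chain of the neonatal Fc receptor, was at 6.32 ± 1.45 against 1.47 ± 0.537 CPM (−2.10). H2-T22, H2-T10 (−0.37, adjusted p 0.0136), H2-Q10 (−3.11, adjusted p 0.00749) and, below, Cd1d2 and H2-Q6 were chosen after their values were seen. The call of H2-Q10 was lost without ANT replicates 4 and 5 (−1.35, 0.068), the libraries with 4.001 and 7.96 CPM where replicates 1 and 3 had 1.03 and 0.992, and that of H2-T10 with library totals as the only scaling (−0.27, 0.0643).

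H2-Q2, a gene of the Q region, went against its relatives. It was at 5.07, 6.10, 2.42 and 2.14 CPM in ANT and at 31.7, 29.0, 35.9 and 28.4 CPM in SAS, so that every SAS library was several times above every ANT library (log2 difference 2.99, SE 0.31, adjusted p 4.02e-05 in edgeR). The listed gene Cd1d2 was also higher in SAS (1.09, adjusted p 0.0206). Its call failed without ANT replicate 3 (1.02, 0.0504), SAS replicate 6 (0.79, 0.0646) or ANT replicates 1 and 3 (1.09, 0.0896). The Qa-2 genes differed from each other: H2-Q7 was at 847 ± 169 CPM in ANT and 598 ± 83.7 in SAS (−0.50, adjusted p 0.0309), and H2-Q6 at 265 ± 60.9 and 337 ± 65.9 (0.35, adjusted p 0.166). The H2-Q7 call was lost under several alternatives, among them leaving out ANT replicate 4 (−0.43, 0.0659), ANT replicate 5 (−0.42, 0.0585), SAS replicate 1 (−0.49, 0.0651), SAS replicate 3 (−0.47, 0.0835) or SAS replicate 6 (−0.45, 0.0897). H2-Q4, with 821 ± 137 and 653 ± 118 CPM, did not pass the test (−0.33, adjusted p 0.134) and was called without ANT replicates 1 and 3 (−0.52, 0.0275), while H2-Q6 was called higher in SAS without ANT replicates 4 and 5 (0.63, 0.0144). Of their 50-base stretches, 16.1% in H2-Q2, 39.2% in H2-Q4, 35.0% in H2-Q6 and 34.9% in H2-Q7 occurred in another gene, as did 43.9% in H2-T22 and 42.95% in H2-T10, mostly in each other, so the values of these 6 genes are uncertain. In Cd1d2, 40.7% also occurred in Cd1d1, so the value of Cd1d2 is uncertain as well. Cd1d1 was at 54.5 ± 3.66 CPM in ANT and 63.8 ± 2.20 in SAS, and Cd1d2 at 3.47 ± 1.02 and 7.35 ± 3.06.

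**Figure D4:**
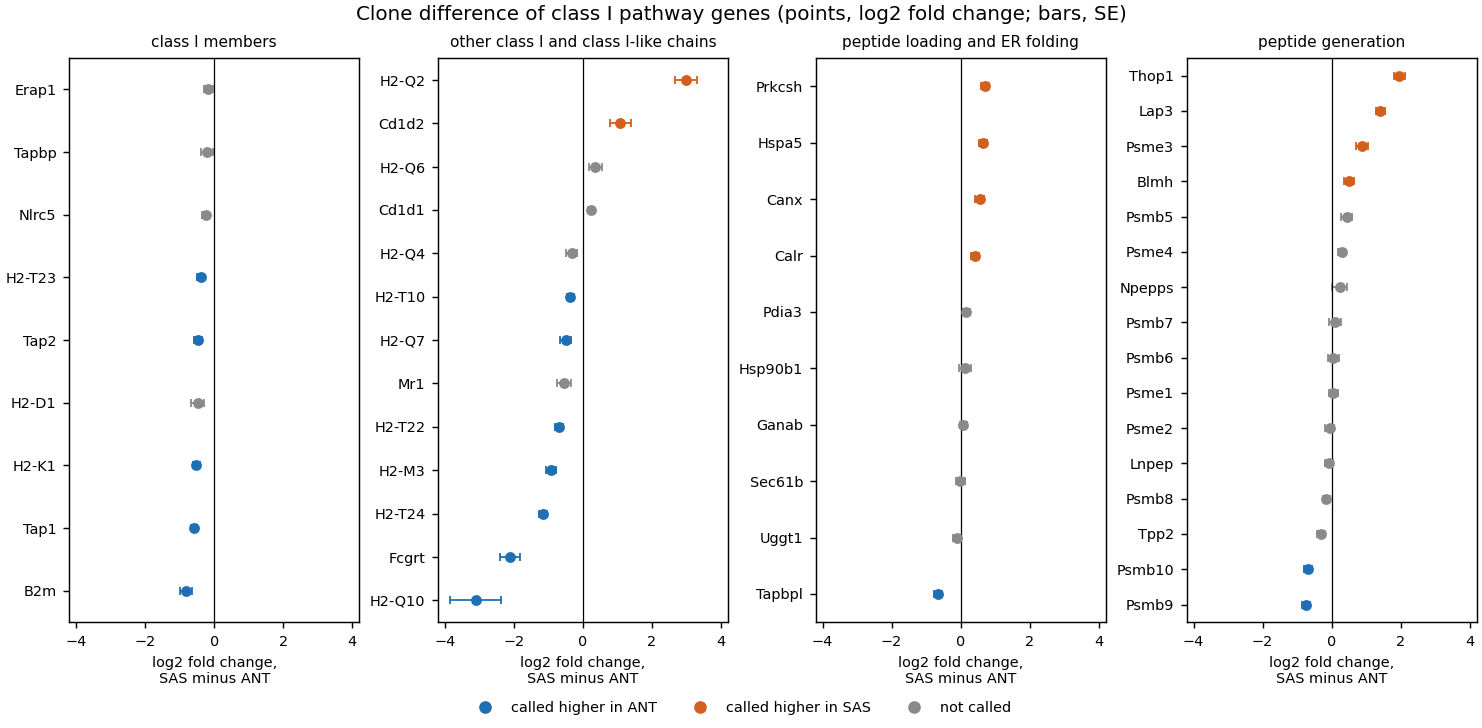
Log2 differences, SAS minus ANT, with SE for the tested genes of 4 lists, coloured by the edgeR call. The 9 members all lie left of 0, class I-like chains and peptide generation genes reach to both sides, and in the loading list only Tapbpl is called higher in ANT.

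Of 10 peptide loading and folding genes, 1 was called higher in ANT and 4 higher in SAS, beside 17.7% and 19.8% of all genes. The median log2 difference of the 10 was 0.14. Tapbpl, which encodes the peptide editor TAPBPR, averaged 85.9 ± 7.02 CPM over ANT and 54.4 ± 6.64 over SAS (log2 difference −0.66, SE 0.11, adjusted p 0.00116 in edgeR). The lectin chaperones Calr and Canx had log2 differences of 0.41 (adjusted p 0.0145) and 0.55 (0.00913), the general chaperone Hspa5 of 0.65 (0.00196) and the glucosidase subunit Prkcsh of 0.72 (0.00101). The Calr call was lost without SAS replicate 6 (0.33, 0.0507) and without ANT replicates 1 and 3 (0.36, 0.0647), and the Canx call without ANT replicates 4 and 5 (0.44, 0.0517).

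Of 16 tested genes that generate peptides, 2 were called higher in ANT and 4 higher in SAS, near the shares over all genes (17.7% and 19.8%). Among the immunoproteasome subunits, Psmb9 was at 146 ± 12.6 CPM in ANT and 86.6 ± 10.8 in SAS (log2 difference −0.76, SE 0.12, adjusted p 0.000543 in edgeR) and Psmb10 at 124 ± 12.8 against 77.6 ± 7.20 CPM (−0.68, adjusted p 0.000845). The third subunit, Psmb8, was at 314 ± 22.7 and 283 ± 8.002 CPM and did not pass the test (−0.15, adjusted p 0.221). The cytosolic peptidases Thop1 and Lap3, which break down free peptides, were higher in SAS, at 20.1 ± 0.847 against 5.15 ± 0.992 CPM (1.96) and 31.4 ± 4.12 against 11.8 ± 1.198 CPM (1.41). Lnpep, a peptidase of endosomes and the gene of this list with the most CPM before any correction for length, was at 367 ± 48.8 and 349 ± 31.9 CPM (adjusted p 0.682).

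Of 18 regulators of class I transcription, 7 were called higher in ANT and 4 higher in SAS, beside 17.7% and 19.8% of all genes. These counts were 5 and 5 with library totals as the only scaling, and 6 and 6 without ANT replicates 4 and 5. Irf1 was at 585, 553, 527 and 503 CPM in ANT and at 279, 245, 300.5 and 245 CPM in SAS, so that the lowest ANT library exceeded the highest SAS library by more than 200 CPM (log2 difference −1.02, SE 0.11, adjusted p 4.16e-05 in edgeR). Prdm1, which encodes the repressor Blimp1, was at 10.5 ± 2.12 CPM in ANT and 0.994 ± 0.391 in SAS (−3.40). Irf8 was at 9.41 ± 2.09 in ANT and 104 ± 22.4 CPM in SAS (3.47), Nfkb1 at 255 ± 88.3 and 601 ± 46.4 CPM (1.24) and the Polycomb methyltransferase Ezh2 at 41.4 ± 2.50 and 94.1 ± 4.45 CPM (1.18). Rfx5, a subunit of the factor that binds the X box, was chosen after its values were seen and had a log2 difference of 0.92 (adjusted p 0.000137).

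Of 9 interferon sensing genes, 2 were called higher in ANT and 4 higher in SAS, beside 17.7% and 19.8% of all genes. The interferon gamma receptor chains Ifngr1 and Ifngr2 were at 201 ± 52.3 against 69.7 ± 10.8 CPM (log2 difference −1.53, adjusted p 0.000152 in edgeR) and at 82.4 ± 6.85 against 49.6 ± 7.93 CPM (−0.73, adjusted p 0.0012), higher in ANT. The kinase gene Jak2 was at 189 ± 18.2 CPM in ANT and 468 ± 37.1 in SAS (1.31), and Jak1 at 1238 ± 98.4 and 1180 ± 49.1 CPM (adjusted p 0.628). The cytokine gene Ifng had 7 counts in all of ANT and 271 in all of SAS (5.12, adjusted p 0.000944). Of 32 interferon response genes, 24 were called higher in ANT and 0 higher in SAS, beside 17.7% and 19.8% of all genes. The median log2 difference of the 32 was −1.16. The GTPase gene Igtp was at 378, 368, 376 and 360 CPM in ANT and at 128, 101, 124 and 105 CPM in SAS (−1.70), and Ifit2 and Oasl2 had log2 differences of −1.69 and −2.19. These were named for their small p, and other genes of the list, such as Isg15 (−0.31) and Isg20 (−0.03), chosen after their values were seen, did not pass the test.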

How the data were processed

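RNA was extracted with TRI Reagent and sequenced as strand-specific TruSeq mRNA libraries, per the labels. The authors deposited raw counts per gene as 1 table. Per the submitters' processing notes, STAR, featureCounts and mm10 were used; versions, annotation and strand setting are not given in the sources used here. Symbols, positions and lengths come from GENCODE M21 (38872 IDs matched without version, 184 did not). Genes passing edgeR's default filter (12619) were tested with the robust quasi-likelihood test (edgeR 4.0.16, R 4.3.3, TMM scaling, no covariates) on 8 libraries, adjusted by Benjamini-Hochberg, with limma 3.58.1 (voom) and DESeq2 1.42.0 as alternatives. The log2 difference is the fitted log2 fold change, SAS minus ANT, and its SE that value over the square root of F. Nearest genes were ranked on log2 CPM (prior count 2). The fit was also tested on simulated data.

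The members, lists and named-gene rule were chosen with earlier results of these data known. The rule names the members, per pathway list the 4 genes with the smallest p and the 2 most abundant, and per marker list the 3 most abundant; other genes are marked, and not every gene of the rule is described. Some genes are not reported here.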

Additional observations from a re-analysis of the deposited data

Results flagged for a closer look

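Of 28 groups of 4 libraries examined for 1 value lying apart, 2 were marked, where chance marks about 1 in 20. Nlrc5 in SAS replicate 2 was at 540.5 CPM, where its 3 companions lay at 461.9 to 472.9, a gap of 0.86 of the whole range. The log2 ratio of H2-T23 to H2-K1 and H2-D1 counts in ANT replicate 5 was −4.08, against −3.95 to −3.93 in the other ANT libraries, a gap of 0.857 of the range.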

How the results depend on the processing

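The 5 members called higher in ANT kept that call in the 19 alternatives other than the test against a 1.5-fold change, except H2-T23, which was not called with a replicate block (log2 difference −0.28, adjusted p 0.0970). Their log2 differences ran from −1.04 (B2m) to −0.28 (H2-T23). Members called higher in ANT numbered 0 in the test against 1.5-fold, where genes called fell to 1205 higher in SAS and 631 in ANT, from 2497 and 2228; SAS-high genes were 52.85% of calls with TMM and 64.78% with library totals alone. The block, the replicate number as a factor, draws on replicates 1 and 3 alone, which occur in both clones; deviations of same-numbered libraries correlated at 0.293 and −0.121, and no label ties them. It called 5 members, and with it Tapbp turned to 0.13 and Nlrc5 was called (−0.34, 0.0465). H2-D1 was called without ANT replicate 1 (−0.59) or 3 (−0.57). Tapbp also turned without ANT replicates 4 and 5 (0.069) and Erap1 without 1 and 3 (0.084). Leaving out single libraries gave −0.51 to −0.40 for the summed heavy chains and 5 to 6 members called. The H2-K1 to H2-D1 ratio, −0.06, turned without ANT replicate 1 (0.039) and 3 (0.022) and ran from −0.15 to 0.039; without both it was 0.21, that of H2-K1 plus H2-D1 to B2m −0.045 and Tap1 to Tap2 0.025, while without ANT replicates 4 and 5 they were −0.33, 0.67 and −0.27. With library totals alone Lnpep was at 0.024, Jak1 at 0.028 and H2-DMa at 0.095; Jak1 was at 0.010 without ANT replicates 4 and 5, Lnpep at 0.038 and H2-DMa at 0.12 without 1 and 3. H2-DMa ran from −0.12 to 0.078 with single libraries left out. The cause of these changes was not tested. Counts per list and the values of single listed genes were examined under alternatives chosen after seeing the data. At 3 libraries against 4 no exact p can go under 0.0571.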

Other observations

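Genes of the class II pathway, which presents peptides to CD4+ T cells and is mainly active in antigen-presenting cells in mice, were also examined. Of 10 listed genes, 2 were called higher in ANT and 2 higher in SAS in edgeR's quasi-likelihood test, near the shares over all genes (17.7% and 19.8%). These counts were 2 and 4 with library totals as the only scaling, and 1 and 2 without ANT replicates 4 and 5. H2-Ob, a subunit of the H2-O modulator of peptide exchange, averaged 88.0 ± 19.2 CPM over ANT and 28.5 ± 4.21 over SAS (SD, n = 4) (log2 difference −1.63, adjusted p 4.25e-05), while its partner H2-Oa was at 5.16 ± 1.35 and 14.4 ± 4.46 CPM (1.49, adjusted p 0.000967). The subunits of 1 heterodimer thus differed in opposite directions. H2-DMa was at 25.7 ± 4.35 and 25.6 ± 1.95 CPM (adjusted p 0.995). Ciita, the class II transactivator, averaged 1.87 ± 0.493 CPM over ANT and 0.678 ± 0.437 over SAS (−1.46, adjusted p 0.0212), a call lost without SAS replicate 6 (−1.24, 0.0571) and without ANT replicates 4 and 5 (−1.27, 0.083). H2-DMb1 had 59 counts in all of ANT and 150 in all of SAS (1.23, adjusted p 0.0136), a call lost without ANT replicates 4 and 5 (1.04, 0.0878).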
